A study of Mus musculus with 2 samples.

Results

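Bulb melanocytes are the pigment-producing cells at the base of a growing hair, and 143 cells of the bulb library carried no Oca2 transcript. They were chosen by their counts: more than 5000 unique molecular identifiers (UMIs, each standing for 1 captured transcript), less than 5% of UMIs from mitochondrial genes, at least 1 UMI of Dct, fewer than 3 UMIs of the keratins Krt10 and Krt14 together, and 0 UMIs of Oca2. Of 4327 barcodes in the bulb library, 3887 passed the UMI limit, 3774 also the mitochondrial limit, 3761 also the Dct limit and 3734 also the keratin limit. The 143 cells were thus 3.83% (exact binomial 95% interval 3.24 to 4.50) of the 3734, and the other 3591, here called Oca2+, had 1 or more Oca2 UMIs. The whole series held 15337 barcodes in 2 libraries, and the bulb library 58161397 UMIs. Because Oca2, Dct, Krt10 and Krt14 selected the cells, their levels below are descriptions.

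Mice of the genotype Dct-rtTA; tetO-H2B-GFP gave both libraries, from dorsal skin. In these mice, the Dct promoter drives a doxycycline-dependent activator that switches on a histone-bound green fluorescent protein. All mice had received doxycycline in their diet for 4 days, and GFP+ cells that excluded DAPI were sorted. The bulb library, labelled Differentiated, was made from microdissected hair bulbs of 4 combined mice aged 5 weeks in anagen VI, the late growth phase, with the version 2 kit. The other library, labelled Activated, held melanocyte stem cells (McSCs) of 4 combined mice aged 8 weeks, 4 days after hair depilation, with the version 3 kit and a different enzymatic dissociation. Each library is 1 sample, so mice cannot be told apart, no p-value was computed, and every interval covers counting error only. A cell enters the sort through a reporter of the Dct promoter, so the sort alone does not make a cell a melanocyte. The libraries shared 1 cell barcode.

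Oca2 encodes the P protein, a channel of the melanosome membrane that carries chloride and helps raise the pH inside the organelle so that tyrosinase can work. Melanosomes mature in steps: Pmel fibrils form first, then the enzymes Tyr, Tyrp1 and Dct arrive, and ion carriers such as Oca2, Slc45a2, Slc24a5 and Slc24a4 set the internal milieu. Mitf and Sox10 are the transcription factors that hold many of these genes on, and Mitf binds short E-box sequences in their promoters. The study used Oca2 as a late marker of pigment cell differentiation, which makes bulb cells without it a question of how uniform the mature population is.

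Oca2 (ENSMUSG00000030450) lies on the plus strand of mouse chromosome 7, chr7:56239760-56536518 in GRCm38. Slc24a4 (ENSMUSG00000041771, chr12:102128733-102267091, plus strand) was among the genes with the lowest ratios in the 143 cells, and Alppl2 (ENSMUSG00000026246, chr1:87086694-87089928, minus strand) was the most abundant gene higher in them. The 250 bases before the transcription start of these 3 genes are shown because they stand for the gene that chose the cells and for a gene on either side of the comparison. The sequences are RefSeq promoters of GRCm38.p6, and capitals mark the E-box letters. These are CACGTG, which reads the same on both strands, and also CATGTG, which on the opposite strand reads CACATG.
Oca2, chr7:56239509-56239758, plus strand: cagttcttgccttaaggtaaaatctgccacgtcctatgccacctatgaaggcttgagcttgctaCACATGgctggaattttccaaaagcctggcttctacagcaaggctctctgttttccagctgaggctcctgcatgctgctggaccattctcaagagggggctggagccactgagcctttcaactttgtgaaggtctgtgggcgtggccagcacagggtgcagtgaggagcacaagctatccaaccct
Slc24a4, chr12:102128477-102128726, plus strand: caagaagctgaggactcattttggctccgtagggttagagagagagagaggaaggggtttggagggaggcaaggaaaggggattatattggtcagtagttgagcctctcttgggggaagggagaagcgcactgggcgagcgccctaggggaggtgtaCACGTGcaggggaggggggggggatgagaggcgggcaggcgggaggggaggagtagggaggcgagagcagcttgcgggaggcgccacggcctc
Alppl2, chr1:87089929-87090178, minus strand: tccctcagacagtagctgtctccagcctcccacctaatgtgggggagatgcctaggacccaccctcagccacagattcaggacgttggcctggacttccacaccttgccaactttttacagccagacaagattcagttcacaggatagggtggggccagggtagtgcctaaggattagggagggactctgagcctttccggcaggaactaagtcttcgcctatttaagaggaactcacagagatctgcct
The Oca2 window held CACATG 186 bases before the start and the Slc24a4 window CACGTG 93 bases before it, whereas the Alppl2 window held none of these letters. Of the 12 other pigmentation genes described below, 7 had a promoter in the table, with 9 windows among them, and 8 of the 9 windows held such a motif. Among all 32851 promoter windows of this length, 17.6% held one. Slc24a5, Mc1r and Mlph, whose ratios given below were near 0, had windows with a motif. The window of Ptgds, a melanocyte gene lower in the cells without Oca2, held none, and Pmel had no promoter in the table. Whether motifs go with the ratios was not tested. A match of letters is a description and does not show that a factor binds there.

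Most cells of the bulb library had many Oca2 UMIs, and the 143 cells stood at the low end of a continuous distribution. The Oca2+ cells had a median of 8 Oca2 UMIs and a highest of 46, which summed to 572 counts per 1000000 UMIs (CPM). The number of cells was highest at 6 Oca2 UMIs (307 cells) and fell on the low side to 208 cells with 2, 184 with 1 and 143 with 0. No gap separated the cells with 0 from those with 1.

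**Figure D1:**
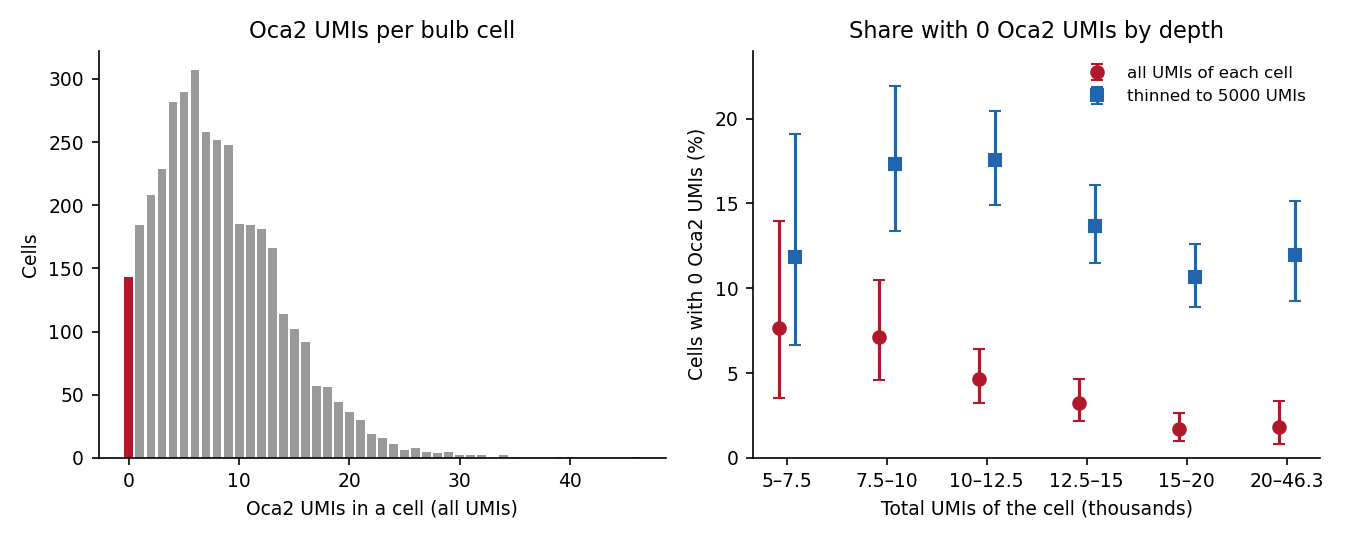
Left, number of bulb cells (y axis) by their Oca2 UMIs at full depth (x axis), with the 143 cells at 0 in red. Right, percent of cells with at least 10 Dct UMIs that had 0 Oca2 UMIs (y axis) in 6 ranges of total UMIs (x axis), at full depth (red circles) and after thinning each cell to 5000 UMIs (blue squares), with exact binomial 95% intervals. The full-depth share was 7.63% in the shallowest cells and 1.79% in the deepest.

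The share of cells with 0 Oca2 UMIs moved with depth. The 143 cells had a median of 11907 UMIs (range 5187 to 33015) and the Oca2+ cells a median of 14378 (range 5003 to 46256). Among cells with at least 10 Dct UMIs, 0 Oca2 UMIs were found in 9 of 118 cells with up to 7500 UMIs (7.63%), 35 of 753 with 10000 to 12500 (4.65%) and 9 of 502 with more than 20000 (1.79%). When each cell was thinned to the same 5000 UMIs, 523 of the 3734 cells had 0 Oca2 UMIs (14.01%, interval 12.9 to 15.2), 380 of which had at least 1 at full depth. All levels below therefore compare cells thinned to 5000 UMIs, and the members remain those with 0 at full depth.

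Zeros of melanosome genes were mostly more frequent at lower levels. Over the 3715 cells with at least 10 Dct UMIs, Oca2 stood at 556 CPM and was at 0 in 124 cells (3.34%). Gpr143, a melanosomal receptor at 733 CPM, was at 0 in 17 of these cells (0.458%). Mc1r, the receptor for melanocyte-stimulating hormone at 226 CPM, was at 0 in 373 cells (10.0%), and Slc24a4 at 177 CPM in 533 cells (14.3%). The order was not strict, since Rab27a at 160 CPM was at 0 in 14.1% and Mlph at 156 CPM in 13.7%, and Pmel at 15297 CPM was at 0 in 2 cells. Rab38 was at 0 in 4 cells, and Slc45a2, Slc24a5 and Mlana in 0, which allows up to 0.0992% of cells by the exact interval. In 42 cells of the same library that had fewer than 10 Dct UMIs, 2 held an Oca2 UMI (4.76%, interval 0.582 to 16.2) at a median of 11028 UMIs, although 30 of them held a Pmel UMI and 31 an Mlana UMI. The 42 include 19 members of the 143, described next, which were chosen for 0 Oca2 UMIs. Of the other 23, 2 held an Oca2 UMI (8.70%, interval 1.07 to 28.0), and whether these cells lack the gene was not tested.

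Split at 10 Dct UMIs, the 143 cells gave 124 and 19, and the label bulb melanocyte went against the data for most of the 19. Dct selected the cells, so its counts do not bear on the label. Of the 12 pigmentation genes, which leave out Dct and Oca2, the 124 had 19 to 391 UMIs per 5000 (median 235). Among the 124, 1 cell also held many marker UMIs of other cell types, as given below. The 124 had 11 or more Dct UMIs at full depth (median 115.5), and the Oca2+ cells had 10 or more (median 230.0). The 19 had 1 to 5 Dct UMIs. Of these 19 cells, 18 had 39 or more UMIs of marker genes of other cell types per 5000 UMIs and at most 11 UMIs of the 12 pigmentation genes. Their leading genes are known from the hair follicle sheath and from cornifying keratinocytes, and the 19 are called here by these genes and given no cell type name. Tchh, trichohyalin of the inner root sheath, stood at 9947 CPM in the 19 cells against 2.56 CPM in Oca2+ cells, and 17 of the 19 had a Tchh UMI. Fabp4, a fatty acid binding protein, stood at 8568 CPM, Krt17 at 6863 CPM, the cornified envelope precursor Ivl at 2116 CPM and Krt75 at 1737 CPM. Mlana had a median of 0 UMIs in them, and Pmel 11 UMIs over all 19 cells.

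**Figure D2:**
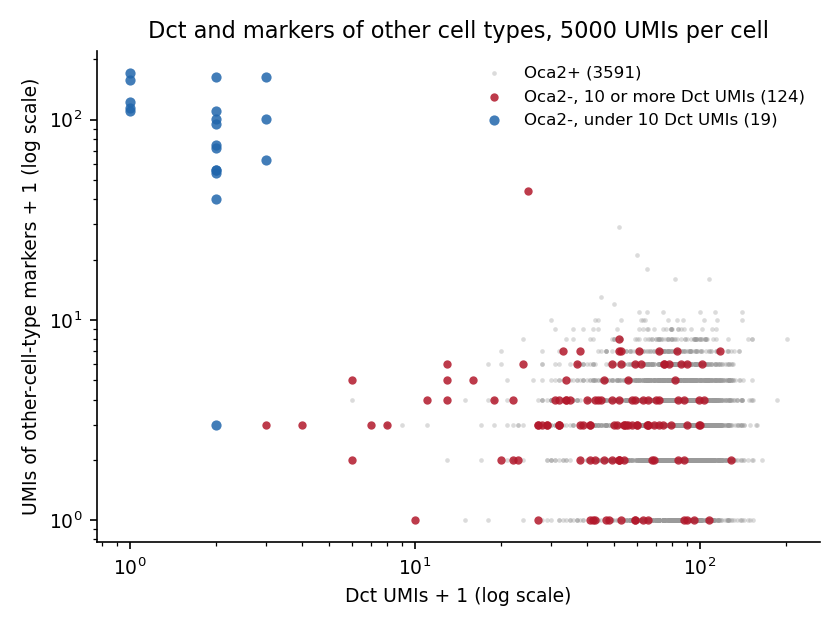
Dct UMIs plus 1 (x axis, log scale) against the summed UMIs of marker genes of other cell types plus 1 (y axis, log scale) for each bulb cell after thinning to 5000 UMIs. Grey points are the 3591 Oca2+ cells, red points the 124 cells without Oca2 that had at least 10 Dct UMIs, and blue points the 19 with fewer. Of the 19, 18 lie at 39 or more marker UMIs, above the Oca2+ cells, whose highest was 28.

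The remaining cell of the 19 had 61 pigmentation UMIs and 2 UMIs of other-type markers. Among the 124, 1 cell combined 141 pigmentation UMIs with 43 other-type UMIs, 16 of them Krt17. For the whole marker lists, the 124 cells had UMIs for 4 of the 12 epidermal genes, summing to 53.2 CPM with Sfn the most abundant, and Krt5, Krt14 and Krt15 were at 0. Oca2+ cells summed to 22.2 CPM for the same list. The cell with 43 other-type UMIs held 24 of the 33 epidermal UMIs of the 124, and with cells of 10 or more other-type UMIs left out of both groups (this 1 and 13 Oca2+ cells) the sums were 14.6 and 20.0 CPM. Krt10 and Krt14 are on this list and were limited by the rule, so its sums are descriptions. Krt10 had 10 UMIs in the 124, and 310 of the 399 epidermal UMIs in Oca2+ cells. The hair matrix and sheath list had UMIs for 5 genes in the 124, with S100a3 the most abundant and Tchh at 0, and summed to 40.3 CPM against 12.4 CPM in Oca2+ cells. The same cell held 17 of these 25 UMIs, and with the same cells left out the sums were 13.01 and 9.45 CPM. At 0 in the 124 were also the 5 erythroid genes, the 10 genes of the fibroblast and papilla list and the 6 of the pericyte and muscle list. The immune list summed to 3.23 CPM against 9.97 CPM in Oca2+ cells, and the endothelial list to 3.23 against 3.51 CPM. Because of the 19 cells, the gene lists below are given for the 143 and for the 124, and single genes for the 124 where the 143 are not named. The genes with the highest ratio in the 143 (Tm4sf4, Tgm3, Dsp, Ivl, Adh6b, Fabp4, Sprr1b, Tchhl1, Csta1 and Nccrp1) came from the 19. In the 124 cells together, Fabp4 and Nccrp1 had 3 UMIs each and Csta1 had 1, and the other 7 were at 0.

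At 50 CPM or more in either group, 3026 genes could be compared for the 143 cells and 2981 for the 124. Against Oca2+ cells, 200 genes were higher by over 1.5-fold in the 143 (6.61%) and 132 were lower (4.36%). For the 124 cells, 124 genes were higher (4.16%) and 87 lower (2.92%). The split of the 143 depended on scaling: under edgeR's TMM factors, which lower every log2 ratio by the same amount (a change of -0.14), 138 genes were higher and 246 lower. The median log2 ratio of all compared genes was 0.04 and 0.06, so gene groups are read against a centre near 0.

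Pigmentation genes were lower in the cells without Oca2. All 12 genes of a pigmentation panel had a ratio below 0 both in the 143 and in the 124. The study examined pigmentation genes on these same samples, so the panel is not independent evidence of a direction. Of the 12, 7 were lower by over 1.5-fold in the 143 and 2 in the 124, against 4.36% and 2.92% of all genes. The median log2 ratio of the panel was -0.61 in the 143 and -0.41 in the 124, and -0.09 (interval -0.24 to 0.05) for the 124 against the 184 cells with exactly 1 Oca2 UMI. Here and below, the interval beside a list median is the median of the bounds of its single genes. It does not measure how well the median itself is known. The panel summed to 45803 CPM in the 124 cells and 63231 CPM in Oca2+ cells.

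Pmel, the protein of the melanosome fibrils (ENSMUSG00000025359, chr10:128704195-128720238, plus strand), had the lowest ratio of the panel together with Slc24a4. Its UMIs per 5000 ranged from 0 to 113 in the 124 cells with a median of 33, and from 0 to 171 in Oca2+ cells with a median of 77. The ranges overlapped, but the upper quartile of the 124 (49.2) lay below the lower quartile of Oca2+ cells (57). The level was 6898 CPM against 15268 CPM, a log2 ratio of -1.15 (interval -1.19 to -1.10). With the 19 other cells included, the log2 ratio was -1.35. Slc24a4, a potassium-dependent sodium and calcium exchanger, stood at 82.3 CPM against 182 CPM (log2 ratio -1.15, interval -1.58 to -0.75), with a UMI in 43 of 124 cells and in 57.4% of Oca2+ cells.

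The enzymes of melanin synthesis and most of the panel were lower by less. Tyrp1 had a median of 47 UMIs in the 124 (range 0 to 98) and of 69 in Oca2+ cells (range 1 to 150), a log2 ratio of -0.54 (interval -0.58 to -0.50). Tyr, which catalyses the first step, stood at 1518 CPM against 1872 CPM (log2 ratio -0.30). Dct, which the rule used, had a median of 51 UMIs against 80 (log2 ratio -0.65 in level). The ion carrier Slc45a2 had a log2 ratio of -0.47, and the lysosome-related GTPases Rab38 and Rab27a had -0.43 and -0.49. Gpr143 had a log2 ratio of -0.40, and Trpm1, a cation channel, of -0.29.

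The other 4 members of the panel had the ratios nearest to 0. Slc24a5, an exchanger of the same family as Slc24a4, stood at 4368 CPM against 4508 CPM (log2 ratio -0.05, interval -0.10 to 0.01). Mlana, a melanosome membrane protein, had a median of 94.5 UMIs against 102 (log2 ratio -0.19). Mc1r (-0.09, interval -0.35 to 0.17) and the melanosome transport adaptor Mlph (-0.17, interval -0.49 to 0.14) had intervals that held 0. The cells without Oca2 thus had unequal ratios within the panel, from Pmel and Slc24a4 at the low end to Slc24a5 near 0.

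**Figure D3:**
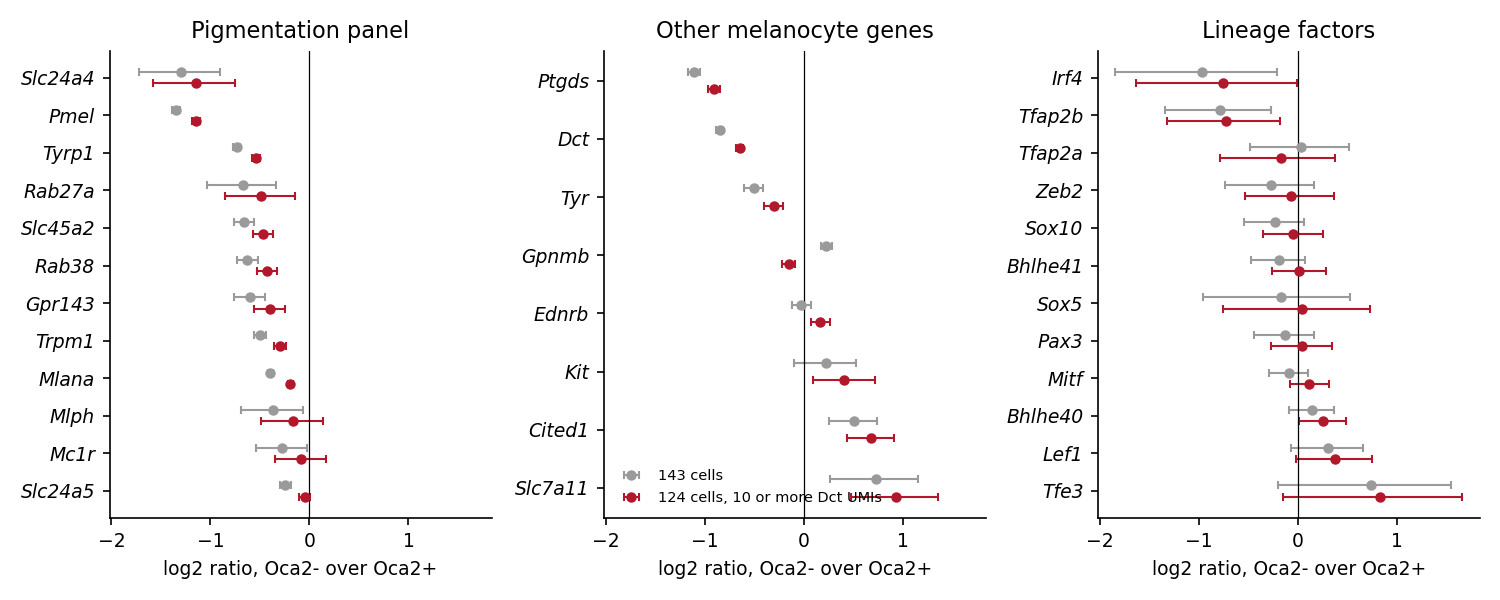
Log2 ratio of the level in cells without Oca2 over Oca2+ cells (x axis) for each gene (y axis) of 3 lists, for all 143 cells (grey) and for the 124 with at least 10 Dct UMIs (red). Bars are exact 95% intervals for counting error. All 12 panel genes lie left of 0, and the lineage factors spread on both sides with a median of 0.03 in the 124.

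Genes of the melanocyte lineage outside the panel went both ways, with 4 of 8 above 0 and 4 below, both in the 143 and in the 124. The 4 below 0 include Dct, which selected the cells, so its place among them is a description. Ptgds, the prostaglandin D2 synthase that mature hair melanocytes express, stood at 3658 CPM in the 124 and 6858 CPM in Oca2+ cells (log2 ratio -0.91, interval -0.97 to -0.85). Slc7a11, the cystine carrier that feeds pheomelanin synthesis, was higher (75.8 against 39.7 CPM, log2 ratio 0.93, interval 0.47 to 1.36), as was the transcription cofactor Cited1 (0.68). The receptors Kit and Ednrb had log2 ratios of 0.41 and 0.17. Among 12 transcription factors of the lineage, 7 were above 0 and 5 below in the 124, with a median of 0.03. Mitf stood at 359.7 CPM against 331 CPM (log2 ratio 0.12, interval -0.08 to 0.31) and Sox10 at 152 against 156 CPM (-0.04, interval -0.36 to 0.25). Tfap2b was the single factor lower by over 1.5-fold among the 8 at 50 CPM (-0.72, interval -1.32 to -0.18), against 2.92% of all genes, and in the 143 the median of the list was -0.15. Of 10 melanosome ion carriers, some of them also on the panel, 9 were below 0 in the 124 and 8 in the 143, with medians of -0.31 and -0.46.

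Genes of the lysosome, an organelle related to the melanosome, were mostly a little lower, and genes of melanosome sorting and transport went both ways. Of 34 lysosome and proton pump genes, 30 were below 0 in the 124 with a median log2 ratio of -0.29, and 3 of the 32 at 50 CPM were lower by over 1.5-fold, against 2.92% of all genes. Against the 184 cells with exactly 1 Oca2 UMI in place of all Oca2+ cells, the median was -0.12 (interval -0.36 to 0.11). In the 143, 30 were below 0 with a median of -0.38, and 5 of 33 were lower by over 1.5-fold, against 4.36%. Ctsd, the protease cathepsin D, had the lowest ratio of those at 50 CPM on the list (974 against 1701 CPM, log2 ratio -0.80, interval -0.92 to -0.69). Atp6v0d2, a proton pump subunit that is not on the list and was looked at after its values were seen, stood at 56.5 against 115 CPM (-1.03, interval -1.55 to -0.55). Cd63, a tetraspanin that sorts Pmel inside early melanosomes, was the most abundant (9187 against 12257 CPM, -0.42). Among 27 genes of melanosome sorting and transport, 18 were below 0 in the 124 and 16 in the 143. The medians were -0.13 (interval -0.67 to 0.58) and -0.20 (interval -0.73 to 0.49). Of 13 at 50 CPM, 1 was higher and 1 lower by over 1.5-fold in the 124, against 4.16% and 2.92% of all genes. In the 143, 0 were higher and 3 lower, against 6.61% and 4.36%. Rab32, which acts beside Rab38 in sending enzymes to melanosomes, had the lowest ratio of those at 50 CPM (32.3 against 79.3 CPM, -1.30, interval -2.01 to -0.67). The 32 genes of oxidative phosphorylation split evenly in the 124, 16 above and 16 below 0, with a median of 0.00. In the 143, 22 were below 0 with a median of -0.02, and in neither group was one past 1.5-fold.

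Beyond the lists, the genes with the lowest ratios in the 124 were Ganc (log2 ratio -1.40), Rab32, Nckap5l (-1.27), Tspan10 (-1.21), Aacs (-1.20), Syt4 (-1.19), Slc24a4, Pmel, Tspan5 (-1.09) and Got1 (-1.03). Tspan10, a tetraspanin expressed in pigment cells, was found in 52 of 124 cells and in 72.8% of Oca2+ cells. Syt4, a synaptotagmin, was found in 56 of 124 cells and in 73.9% of Oca2+ cells. Of these 10 genes, 8 were also among the 10 lowest in the 143, which include the 124, so the overlap is not independent.

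Alppl2, an alkaline phosphatase of the placental-like type, was the most abundant gene that was higher in the cells without Oca2. It ranged from 0 to 264 UMIs per 5000 in the 124 cells with a median of 9, and from 0 to 355 in Oca2+ cells with a median of 0. Its level was 10439 CPM against 2894 CPM (log2 ratio 1.85, interval 1.81 to 1.89). In the 143 the log2 ratio was 1.66. The ranges overlapped fully, and the difference lay in how many cells were high. Of the 124, 53 had 50 or more UMIs (42.7%, interval 33.9 to 51.9), compared with 430 of 3591 Oca2+ cells (11.97%, interval 10.9 to 13.1). Few of the 124 lay in between: 9 had 10 to 49 UMIs, and 62 had fewer than 10. The neighbouring family member Alpi had 15 UMIs in the 124, and Akp3 and Alpl had 0. In the early-anagen McSCs, 13.8% of cells had an Alppl2 UMI.

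Within the 124, cells with much Alppl2 were those with less Pmel, Dct and Tyrp1. The 53 cells with 50 or more Alppl2 UMIs had a median of 22 Pmel UMIs, 37 Dct UMIs and 35 Tyrp1 UMIs, and the other 71 had medians of 40, 61 and 55. Mlana went the other way, with medians of 98 and 88. Across the 124 cells, Spearman's rho of Alppl2 with Pmel was -0.38, with Dct -0.48, with Tyrp1 -0.50 and with Mlana 0.08. Across the 3591 Oca2+ cells the values were -0.19, -0.17, -0.20 and 0.04. These values describe cells of 1 library thinned to 1 depth. At full depth, at which 0 Oca2 UMIs were required, the 53 had a median of 14413 UMIs and the other 71 of 10918.

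**Figure D4:**
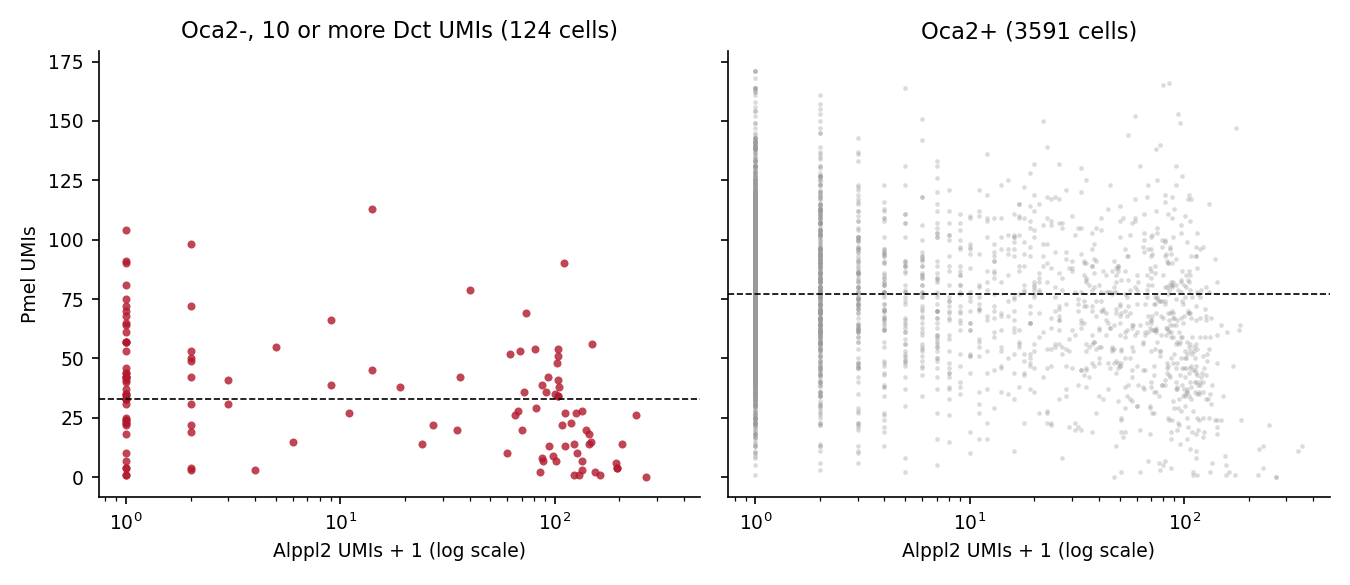
Alppl2 UMIs plus 1 (x axis, log scale) against Pmel UMIs (y axis) for each cell after thinning to 5000 UMIs, for the 124 cells without Oca2 (left) and the 3591 Oca2+ cells (right). Dashed lines mark the median Pmel count, 33 and 77 UMIs.

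A subset of the 124 had little Pmel. Pmel was at 10 UMIs or fewer in 26 of 124 cells (20.97%, interval 14.2 to 29.2) and in 39 of 3591 Oca2+ cells (1.09%, interval 0.773 to 1.48). These 26 cells had a median of 4 Pmel UMIs, with at least 1 in 25 of them. They held other melanocyte transcripts, at lower medians than the other 98 cells. Their medians were 69.5 Mlana UMIs (range 11 to 124), 35 Tyrp1 UMIs and 27 Dct UMIs, against 99.5, 50.5 and 53 in the 98. Ptgds had medians of 8.5 and 17 UMIs, and Trpm1 of 12.5 and 19. Alppl2 went the other way, with medians of 92 and 3 UMIs. The limit of 10 divides a continuous range, since 18 of the 124 lay between 5 and 15 Pmel UMIs.

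Genes of mitosis were higher, and few cells carried them. All 20 genes of the G2/M list had a ratio above 0 in the 124, with a median log2 ratio of 2.66 and a sum of 531 CPM against 82.0 CPM. In the 143 all 20 were above 0 too, with a median of 2.51 and a sum of 473 CPM. Ube2c, which targets cyclins for destruction, had the most UMIs of the list (80.6 against 5.57 CPM, log2 ratio 3.86, interval 3.34 to 4.36), followed by the survivin gene Birc5 (54.8 against 8.86 CPM, 2.63) and the topoisomerase gene Top2a (48.4 against 4.68 CPM, 3.37). Ube2c had a UMI in 10 of the 124 cells, Birc5 in 13 and Top2a in 7. Cenpa, the histone variant of centromeres and not on the list, stood at 75.8 against 10.2 CPM (2.89), with a UMI in 13 cells. Cells with 10 or more G2/M UMIs numbered 7 of 124 (5.65%, interval 2.30 to 11.3) and 47 of 3591 (1.31%, interval 0.964 to 1.74). The 7 held 277 of the 329 G2/M UMIs of the 124, with 62 in the highest cell and 15 in the lowest, while the next cell had 7. They had a median of 20435 UMIs at full depth, which is above that of the 124 (12262), and doublets were not removed. They were melanocytes by their counts, with a median of 86 Mlana, 40 Dct and 22 Pmel UMIs, and each had an Alppl2 UMI (median 61). Without such cells in both groups, the G2/M sum was 88.9 CPM in 117 cells and 29.5 CPM in 3544 (log2 ratio 1.59, interval 1.15 to 2.0). The 18 S-phase genes were nearer to 0, with a summed log2 ratio of 0.27 (interval 0.09 to 0.45) in the 124 and 0.31 in the 143.

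Several other genes with the highest ratios sat in a handful of cells too. Serpine2, a secreted protease inhibitor, stood at 77.4 against 8.02 CPM (log2 ratio 3.27, interval 2.77 to 3.75), with 28 of its 48 UMIs in 3 cells. Cd9, a tetraspanin on the list of stem-cell-enriched genes described below, stood at 79.0 against 10.2 CPM (2.95, interval 2.46 to 3.41), with 25 of 49 UMIs in 3 cells. Capg, an actin-capping protein, had 2.58 and 17 cells with a UMI. The cells overlapped in part: of the 11 cells with a Serpine2 UMI, 7 had a Capg UMI and 4 a Cd9 UMI, compared with 10 and 11 of the 113 cells without Serpine2. In Oca2+ cells, 13 and 18 of the 92 with a Serpine2 UMI had them, compared with 127 and 121 of 3499. Cells with 5 or more UMIs of Cd9, Serpine2, Capg and Fxyd5 together numbered 10 of the 124 (8.06%) and 12 Oca2+ cells (0.334%). Cd9, Serpine2 and Capg were taken for their high ratios in the 124, so a higher share was built in and is a description. By this choice too, the 10 cells held 37 of 49 Cd9, 36 of 48 Serpine2, 25 of 33 Capg and 9 of 9 Fxyd5 UMIs. They also held 36 of the 90 Vim UMIs, a gene outside the choice, and 5 of the 10 had 4 or fewer Pmel UMIs. The remaining genes of the 10 highest were Cks1b (2.26), the p53 target Phlda3 (2.23), the tubulin-binding Stmn1 (2.20) and Alppl2.

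A list of 6 stem-cell-enriched genes summed to 131 CPM in the 124, 214 CPM in the 143 and 39.8 CPM in Oca2+ cells. Of these genes the study's text names Col12a1, Txnip and Cdh1, and the list was chosen with results of these samples known. The summed log2 ratios were 1.72 (interval 1.37 to 2.05) for the 124 and 2.43 for the 143. Against cells with exactly 1 Oca2 UMI, the 124 had a summed log2 ratio of 0.59 (interval 0.12 to 1.05). Of the 111 Cd9 UMIs in the 143, 62 came from the 19 cells with fewer than 10 Dct UMIs. Cd9 made up most of the sum in the 124 and the 143, and Txnip was the most abundant in Oca2+ cells. Apart from Cd9 and Txnip, the genes had few UMIs in the 124. Col12a1 stood there at 4.84 CPM against 3.17 in Oca2+ cells, Cdh1 at 6.45 against 4.23 and Hspa1a at 4.84 against 4.51. Sept4 was at 0 in the 124. In the 124, 44 of the 49 Cd9 UMIs were in 10 cells. In the early-anagen McSCs with more than 10000 UMIs (2785 cells, same filter and thinning) Cd9 stood at 715 CPM and Col12a1, a collagen, at 245 CPM, against 4.84 CPM of Col12a1 in the 124. Txnip, a regulator of redox and glucose uptake, stood at 201 CPM in those McSCs, 35.5 CPM in the 124 and 17.5 CPM in Oca2+ cells. The intermediate filament gene Vim stood at 5026 CPM in the McSCs with a UMI in 99.4% of cells, at 145 CPM in the 124 with a UMI in 39 cells, and at 45.8 CPM in Oca2+ cells (log2 ratio 1.66, interval 1.33 to 1.98). Kit version, dissociation, age and hair cycle stage differed between the libraries and cannot be told apart, so these levels are set side by side without a comparison.

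Set beside the bulb groups in the same way, Pmel stood at 4468 CPM in the McSCs, 6898 CPM in the 124 and 15268 CPM in Oca2+ cells. Slc24a5 stood at 922 CPM in the McSCs and 4368 CPM in the 124, and Mlana at 5539 and 17955 CPM. In the McSCs, Oca2 was found in 454 of 2785 cells (16.3%, interval 14.9 to 17.7) at full depth. Lists of genes that go with McSCs with and without Oca2 were also looked at, and these were chosen with results of these samples known. Of 5 listed with the Oca2+ McSCs, 4 were below 0 in the 124, led by Slc24a4. Of 5 listed with the Oca2- McSCs, 3 had UMIs in both groups and all 3 were above 0: Apod (log2 ratio 0.70), Cd200 (1.30, interval 0.90 to 1.67) and Fxyd5, whose 9 UMIs came from 2 cells. Cavin3 and Capn6 were at 0 in the 124.

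Lists of stress and signalling genes differed in size and direction. Of 6 p53 and apoptosis genes at 50 CPM, 4 were higher by over 1.5-fold in the 124, against 4.16% of all genes, and 4 of 5 in the 143, against 6.61%. Among them were Cdkn1a, the cell cycle inhibitor p21 (324 against 190 CPM, log2 ratio 0.77, interval 0.56 to 0.97), and Ccng1 (0.80). Of 10 immediate-early genes at 50 CPM in the 124, 4 were lower by over 1.5-fold, against 2.92% of all genes, Dusp1 (-0.90), Klf6 (-0.70), Jun (-0.66) and Fos (-0.64), and 1 was higher, Socs3 (0.79). The split differed in the 143, where 3 of 10 were lower and 3 higher (Ier2, Ier3 and Junb), against 4.36% and 6.61% of all genes. The heat shock list had a median of 0.09 and the unfolded protein response list one of -0.01, with none past 1.5-fold at 50 CPM in the 124. In the 143, 1 of 8 heat shock genes at 50 CPM was higher by over 1.5-fold (Hspb1), against 6.61% of all genes. The list of the Mc1r and cAMP pathway had a median of -0.09 and none past 1.5-fold. Among targets and feedback genes of WNT signalling, the feedback inhibitor Nkd1 was at 621 against 499.5 CPM (0.31) and Sfrp4 at 313 against 549.9 CPM (-0.81), and the list had a median of 0.27 (interval -0.55 to 0.75) over 11 genes but a summed log2 ratio of -0.11 (interval -0.20 to -0.01). Of 16 cytoskeleton genes at 50 CPM, Marcksl1 (1.19), Stmn1, Tmsb4x (0.69) and Vim were higher by over 1.5-fold in the 124, against 4.16% of all genes. In the 143, 5 of 16 were higher by over 1.5-fold, against 6.61% of all genes. The list of interferon and antigen presentation genes had a median of 0.84 from few UMIs, since 2 of its 16 genes reached 50 CPM, B2m (0.11) and H2-D1 (-0.06). The median mitochondrial share was 2.66% in the 124 and 2.78% in Oca2+ cells, and the ribosomal protein share 12.1% and 10.9%.

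Several of the differences were graded over the level of Oca2, and others were not. The Oca2+ cells were divided by their Oca2 UMIs after thinning, from 0 (380 cells) to 5 or more (677 cells). Pmel stood at 6898 CPM in the 124, then at 12249 CPM in Oca2+ cells with 0 UMIs after thinning, 13426 with 1, 15309 with 2 and 17419 with 5 or more. Alppl2 stood at 10439 CPM in the 124 and at 5911, 4154, 2975 and 1259 CPM in the same 4 groups. Tyrp1, Slc24a4 and Ptgds followed the order of Pmel, with 9466, 82.3 and 3658 CPM in the 124 against 14927, 217 and 8076 CPM at 5 or more. Slc24a5 stayed between 4353 and 4698 CPM. Kit stood at 145 CPM in the 124 and between 106 and 113 CPM in every Oca2+ group, with no order among them. Apod stood at 139 CPM in the 124 and 146 CPM in the 380. Cells with 10 or more G2/M UMIs were 5.65% of the 124, 3.68% of the 380, 2.67% of the 675 with 1 UMI and 0.148% of those with 5 or more.

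**Figure D5:**
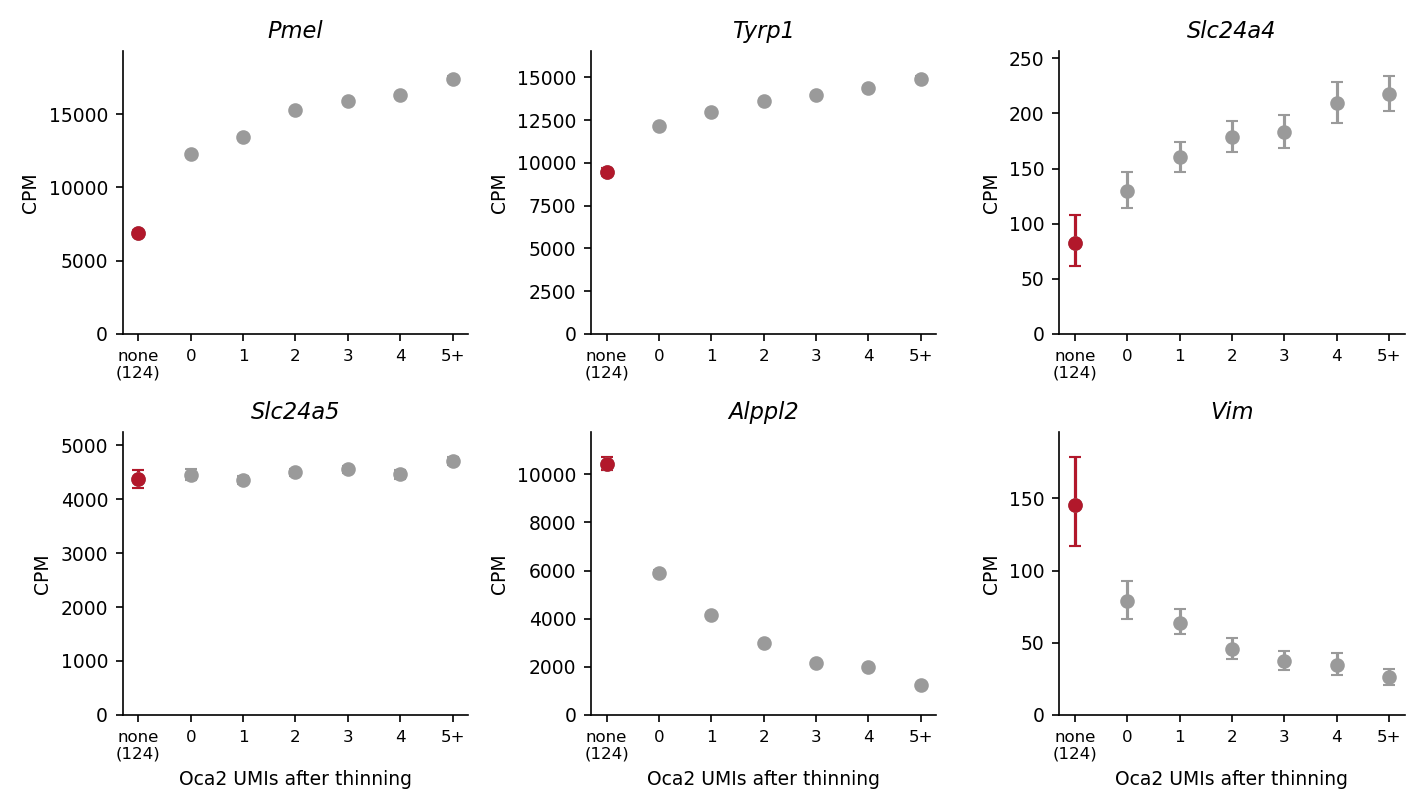
Level in CPM (y axis) of 6 genes in the 124 cells without Oca2 at full depth (red, marked none) and in Oca2+ cells with at least 10 Dct UMIs grouped by their Oca2 UMIs after thinning to 5000 UMIs (grey, x axis). Bars are exact 95% intervals for counting error. Pmel, Tyrp1 and Slc24a4 were lowest in the 124, Alppl2 and Vim highest, and Slc24a5 lay between 4353 and 4698 CPM.

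The nearest cells outside the rule were the 184 with exactly 1 Oca2 UMI, whose median depth was 11308 UMIs. In them Pmel stood at 9390 CPM with a median of 43 UMIs, Alppl2 at 8401 CPM, Slc24a4 at 125 CPM and Slc24a5 at 4287 CPM. Pmel was at 10 UMIs or fewer in 11 of the 184 (5.98%), Alppl2 at 50 or more in 61 (33.2%), and G2/M UMIs at 10 or more in 7 (3.80%). Measured against these 184 cells in place of all Oca2+ cells, the median log2 ratio of the 12 pigmentation genes in the 124 was -0.09 (interval -0.24 to 0.05).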

How the data were processed

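The authors aligned and counted the reads of each library with Cell Ranger 6.0.1 against mm10, per the labels, and deposited whole-number UMI counts, which cover 32285 genes in every barcode. Levels were computed from these deposited counts in Python 3.11.15 with numpy 2.4.6, scipy 1.17.1 and pandas 2.3.3. Each cell was thinned to 5000 UMIs by a random draw without replacement (seed 7), and the UMIs of a group were summed and given as CPM. The log2 ratio of 2 groups has an exact conditional 95% interval, and a share of cells an exact Clopper-Pearson interval. For the median of a gene list, the bounds printed are the medians of its genes' lower and upper bounds. They are not a 95% interval of the median. Genes were compared at 50 CPM or more in either group, and the fold used to count genes was 1.5. With 1 library there was no test. The ratio and thinning code was tested on simulated data.

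Genes named outside the lists were the 10 largest log2 ratios in each direction, without mitochondrial, ribosomal protein and clone-named genes. A few, such as Alpi and Atp6v0d2, were added after their values were seen. The members and all gene lists were chosen with earlier results of these data known. Doublets were not removed, and an alternative leaves out the 5% of cells with the most UMIs. The 124 cells with at least 10 Dct UMIs are a narrower selection given beside the 143. Gene positions are from GENCODE M21 (GRCm38), whose release may differ from the one used for counting. A telogen library was not analysed here. The results of 1 cell type marker list and of the sex-linked genes are not reported here.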

Additional observations from a re-analysis of the deposited data

How the results depend on the processing

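The alternatives covered the cell filters, the thinning, the scaling and the comparison group. Over 111 alternative values, 84 stayed within the counting interval, 27 moved and 0 changed sign where the interval had been clear of 0. For 5 values, from 3 settings, an interval that had been clear of 0 came to hold 0, and these are printed with their intervals. Where the value is a list median, the bounds are medians of single-gene bounds and cannot decide whether the median differs from 0. The share of cells without Oca2 was 14.01% with 0 counted after thinning, 3.19% above 10000 UMIs, 7.09% at up to 12000 UMIs and 5.00% without cells of 3 or more UMIs of other-type markers. That last setting drops most cells, and the cause of its other changes was not tested. The median log2 ratio of the 12 pigmentation genes was -0.61 and became -0.29 with 0 counted after thinning, -0.30 (interval -0.83 to 0.0015) without cells of 3 or more other-type UMIs, -0.41 with at least 10 Dct UMIs, -0.41 with fewer than 10 other-type UMIs as well, -0.40 with at least 10 Dct UMIs and without cells of 10 or more G2/M UMIs, -0.087 (interval -0.24 to 0.05) with at least 10 Dct UMIs and against cells with exactly 1 Oca2 UMI, and -0.75 under edgeR 4.0.16 TMM factors. The lysosome and proton pump median was -0.38 and became -0.18 with 0 counted after thinning and -0.12 (interval -0.36 to 0.11) with at least 10 Dct UMIs and against cells with 1 Oca2 UMI, and it stood at -0.38 (interval -0.82 to 0.04) without cells of 3 or more other-type UMIs. The summed log2 ratio of the stem-cell-enriched genes was 2.43 and became 1.35, 1.72, 1.72 and 0.59 with 0 counted after thinning, with at least 10 Dct UMIs, with fewer than 10 other-type UMIs as well, and with at least 10 Dct UMIs against cells with 1 Oca2 UMI. The summed log2 ratio of S-phase and G2/M genes was 1.06 and rested on few cells: it became 0.13 (interval -0.07 to 0.32) with at least 10 Dct UMIs and without cells of 10 or more G2/M UMIs, 0.61 with 0 keratin UMIs, 0.73 at up to 12000 UMIs, 1.26 above 10000 UMIs, 1.24 below 3% mitochondrial UMIs, 1.31 without thinning, 0.92 with 0 counted after thinning, 0.92 under TMM, 1.51 without cells of 3 or more other-type UMIs, and 0.43 with at least 10 Dct UMIs against cells with 1 Oca2 UMI. The settings on fewer than 10 other-type UMIs, G2/M cells and cells with 1 Oca2 UMI were chosen after seeing the data. Leaving out the 5% of cells with the most UMIs moved none of the 6 results. Averaging each cell's CPM after thinning gives the summed value by construction. No paired analysis was possible because the 2 libraries are 1 sample each. Mc1r, Mlph and other genes at such levels have too few UMIs in 124 cells to resolve ratios of the size seen for Mlana.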
